A study of Mus musculus with 6 samples.

Results

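Secreted and membrane proteins enter the endoplasmic reticulum (ER) through a shared set of machines, and 36 genes of that set were examined here. They were taken as a fixed list of gene symbols covering the signal recognition particle and its receptor, the Sec61 translocon with its partners, the signal peptidase, the oligosaccharyltransferase, and enzymes that make dolichol-linked sugars. The deposited table held 35 of them among 16095 genes, and Tusc3 was not analysed here. All 35 passed the filter used for testing, a mean of at least 10 normalized counts over the 6 libraries, as did 14822 genes in all.

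Kidney libraries from Trf1lox/lox mice, 3 in number and called Terf1_flox here, were compared with 3 libraries from Trf1+/+ mice, the control. Trf1 is the protein name of Terf1, which encodes a subunit of the shelterin complex on telomeres. Mice of both groups carried the fluorescent reporter KFP and a Cre that tamoxifen switches on, driven by the Ksp-cadherin (Cdh16) promoter, so that deletion is limited to renal epithelium. Both groups, of both sexes, received tamoxifen 3 times a week for 8 weeks from an age of 6 to 8 weeks. Epithelial cells were sorted by EpCAM and the reporter, and polyadenylated RNA was turned into libraries with a low-input kit. The labels do not say whether the libraries come from separate mice, so p-values measure the spread between these libraries only.

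When a ribosome begins to make a secreted or membrane protein, the signal recognition particle binds its signal sequence and brings the ribosome to the receptor on the ER. The growing chain is threaded through the Sec61 channel, the signal peptidase removes the signal sequence, and the oligosaccharyltransferase transfers a preassembled sugar tree from dolichol to asparagine residues. Tubule cells of the distal nephron depend on this route for their transporters and for uromodulin, an abundant secreted glycoprotein.

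Terf1 held 62.0, 24.6 and 25.3 normalized counts in Terf1_flox libraries, against 529.6, 486.1 and 663.9 in control libraries. Libraries held 13870931 to 15375471 reads over the genes of the table in Terf1_flox and 13582140 to 17680986 in control. The mitochondrially encoded share of reads was 16.2% to 20.6% in Terf1_flox and 10.3% to 13.0% in control libraries. Summed over 6 markers of the thick ascending limb, the level ran from 193492 to 207239 normalized counts in Terf1_flox and from 231146 to 281765 in control libraries. The 6 intercalated cell markers summed to 6010 to 11420 in Terf1_flox and 8811 to 20196 in control libraries, and the 5 proximal tubule markers, of which Slc5a2 was not analysed here, to 446.0 to 1630 in Terf1_flox and 166.6 to 674.7 in control libraries. The 4 principal cell markers summed to 169.3 to 941.2 in Terf1_flox and 849.4 to 2069 in control libraries, and the 4 listed of 8 macrophage markers to 142.7 to 229.5 in Terf1_flox and 270.8 to 346.6 in control libraries. For 3 distal convoluted tubule markers the sums overlapped, at 61904 to 100101 in Terf1_flox and 56483 to 117919 in control libraries. Those of 4 erythroid markers overlapped too, at 151 to 554 in Terf1_flox and 190 to 746 in control libraries. All 5 endothelial and all 4 podocyte markers, and 6 of 7 fibroblast markers, were not among the genes analysed here. Plasma cells have a large ER. Of 7 B and plasma cell markers 3 were listed, the B cell genes Cd79a, Cd79b and Ms4a1. They summed to 24.6 to 135.6 in Terf1_flox and 4.74 to 17.2 in control libraries. Jchain, Mzb1, Igkc and Ighm were not analysed here. Epcam, the sorting marker, averaged 2081 ± 802 in Terf1_flox and 4671 ± 363 in control libraries (SD, n = 3 each). What part these differences have in the results below was not tested. In such bulk libraries, fewer cells of a type and less RNA per cell cannot be told apart.

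The comparison asks how expression of the entry and glycosylation machinery differs when Terf1 is deleted. No gene of the list passed the test across all genes. By value, the oligosaccharyltransferase subunits Ddost, Stt3a, Rpn1 and Rpn2, the particle subunit Srp68 and its receptor Srpr were lower in every Terf1_flox library than in any control library, and the small subunits Sec61g, Spcs1, Ost4 and Ssr4 were higher in every one. These differences ran in opposite directions, so that the median log2 fold change of the 35 genes was 0.11, beside −0.08 over all genes tested. In the fit across all genes (limma, adjusted p below 0.05), 0 of the 35 genes passed, and 0% of all genes did; edgeR also passed 0 of both. At an unadjusted limma p below 0.05, 4 of 35 genes were higher (5.7% of all genes tested) and 6 of 35 were lower (8.43% of all genes tested). That split was 4 against 6 with the deposited scaling, 2 against 10 with equal library totals and 9 against 6 with equal upper quartiles. Among all genes tested, these scalings moved the median log2 fold change by −0.17 and 0.11. Shares of all genes at that unadjusted limma p were counted with the deposited scaling only. The counts under the other 2 scalings therefore have no background beside them. The groups did not overlap, with every Terf1_flox library higher, for 8 of 35 genes (10.3% of all genes tested), and with every Terf1_flox library lower for 7 of 35 (10.8%). DESeq2 on recovered whole reads passed 6 of 35 genes, against 5.81% of all genes with an adjusted p. With limma restricted to genes with a mean of at least 50, 2 of 35 passed, Ddost and Sec61g, against 1.22%.

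**Figure D1:**
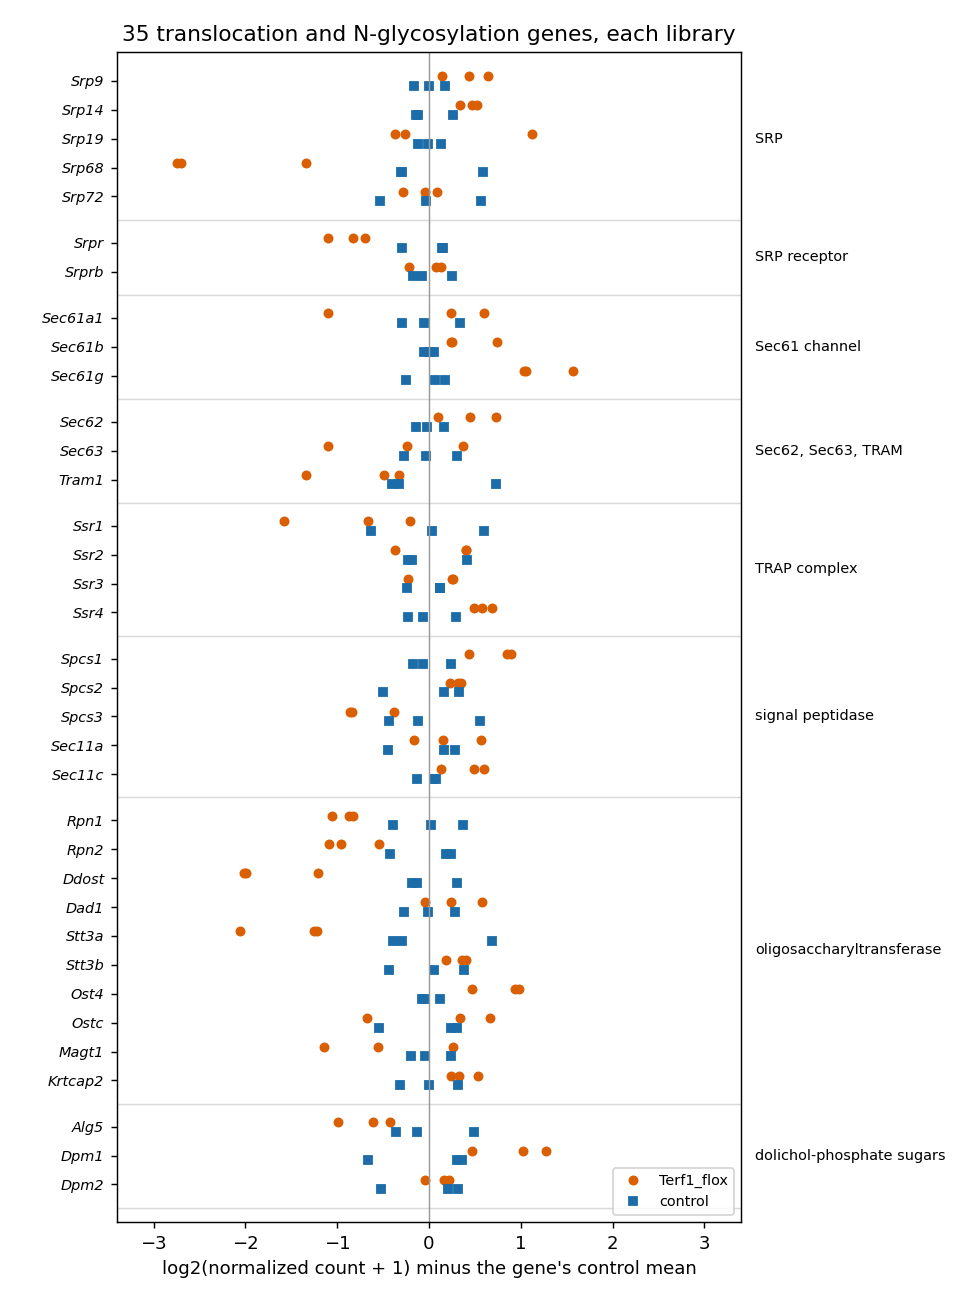
Each point is 1 library; the horizontal axis gives log2(normalized count + 1) minus the mean of the 3 control libraries for that gene, with Terf1_flox as orange circles above control as blue squares. Ddost, Stt3a and Srp68 have all 3 Terf1_flox points left of the control points, and Sec61g, Spcs1 and Ost4 have all 3 to the right.

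Subunits of the signal recognition particle differed in size and sign of their values, and none passed in limma. Srp68, which pairs with Srp72 to form the docking part of the particle, held 70.7, 72.9 and 189.2 normalized counts in Terf1_flox libraries, against 721.4, 391.7 and 388.4 in control libraries. All 3 Terf1_flox libraries were below all control libraries, a 4.79-fold lower level (log2 fold change −2.26 ± 0.58, SE). Adjusted p-values were 0.162 by limma and 0.015 by DESeq2. A correction for the GC content and length of transcripts gave −1.51. Its partner Srp72 averaged 715.0 ± 91.5 in Terf1_flox and 789.3 ± 301 in control libraries, with a log2 fold change of −0.08 ± 0.37. Within a library, Srp68 stood at 0.0972, 0.118 and 0.237 of the Srp72 count in Terf1_flox, against 1.39, 0.352 and 0.527 in control libraries. This ratio does not depend on how libraries are scaled, and its groups did not overlap. It is among 8 within-library ratios that were computed, all picked after the values were seen and therefore not tested; the groups did not overlap in 7 of the 8.

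For the other particle subunits, log2 fold changes were small. Srp14, which with Srp9 forms the small domain that slows the ribosome, held 5356.1, 5148.8 and 4693.7 in Terf1_flox libraries, against 4464.5, 3356.0 and 3423.6 in control libraries. The groups did not overlap, and the log2 fold change was 0.45 ± 0.20 (limma adjusted p = 0.37). Srp9 averaged 3539 ± 616 in Terf1_flox and 2654 ± 309 in control libraries (0.41 ± 0.23). Srp19, an assembly factor of the particle, ranged from 806.0 to 2259.9 in Terf1_flox and from 960.6 to 1139.9 in control libraries, and its log2 fold change of 0.16 ± 0.42 rested on Terf1_flox replicate 2, without which it was −0.32. The receptor consists of a GTPase that binds the particle, Srpr, and its membrane anchor, Srprb. Srpr held 440.5, 582.9 and 532.3 in Terf1_flox libraries, against 770.6, 1046.5 and 1053.0 in control libraries, again without overlap. The difference of −0.88 ± 0.32 in log2 (adjusted p = 0.277 by limma and 0.147 by DESeq2) became −0.50 under the correction. Its exons share 50 bases with Fam118b and 39 with Tirap, both on the other strand. Srprb averaged 361.2 ± 45.0 in Terf1_flox and 362.8 ± 57.4 in control libraries (−0.00 ± 0.39), and 888 bases of its exons are shared with the gene Gm20425 on the same strand.

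The Sec61 channel is a trimer of the pore-forming Sec61a1 and the small subunits Sec61b and Sec61g. Sec61g held 8756.4, 6063.3 and 6138.8 normalized counts in Terf1_flox libraries, against 3345.5, 3096.7 and 2491.3 in control libraries. The lowest Terf1_flox value was above the highest control value, and the level was 2.33-fold higher (log2 fold change 1.22 ± 0.23). The limma adjusted p was 0.0931 over all genes and 0.0344 over genes with a mean of at least 50, and the DESeq2 adjusted p was 0.000184. The corrected value was 1.41 with the principal transcript and 1.19 with that of the longest coding sequence. Leaving out single libraries gave 1.05 to 1.31. Sec61b held 4215.1, 4234.4 and 5968.8 in Terf1_flox libraries, against 3579.5, 3425.5 and 3712.5 in control libraries, without overlap but with a smaller log2 fold change of 0.41 ± 0.21 (limma adjusted p = 0.43). Sec61a1 ranged from 152.9 to 500.4 in Terf1_flox and from 268.4 to 417.0 in control libraries, so the groups overlapped (−0.08 ± 0.54). Sec61g thus stood at 17.5, 39.7 and 15.8 times the Sec61a1 count in Terf1_flox libraries, against 8.02, 9.76 and 9.28 times in control libraries. Per kilobase of the principal transcript, the control level was 6334 for Sec61b, 1599 for Sec61g and 105.4 for Sec61a1. That transcript has 564 bases for Sec61b and 1862 for Sec61g, so these levels depend on the transcript chosen.

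Partners of the channel overlapped between groups. Sec62, which serves short proteins that enter after translation, had the highest count of the list, not adjusted for length, at 15113 ± 3255 normalized counts in Terf1_flox and 11091 ± 1208 in control libraries (0.43 ± 0.20, limma adjusted p = 0.37). Sec63, which acts with Sec62 and brings the chaperone BiP to the channel, had a log2 fold change of −0.32 ± 0.44. Tram1, which lies beside the channel and helps signal sequences in, averaged 1508 ± 506 in Terf1_flox and 2540 ± 1203 in control libraries (−0.72 ± 0.40); without control replicate 3, the highest at 3928.0, it was −0.35. In the TRAP complex, which attaches to Sec61, only Ssr4 separated the groups. Ssr4 held 4143.3, 4470.5 and 3911.4 in Terf1_flox libraries, against 3412.3, 2369.5 and 2665.8 in control libraries (0.58 ± 0.22, adjusted p = 0.281 by limma and 0.157 by DESeq2). Ssr1 was at −0.82 ± 0.43, Ssr2 at 0.15 ± 0.31 and Ssr3 at 0.10 ± 0.27, and each overlapped. Ssr1 was at −0.44 leaving out Terf1_flox replicate 2, and its corrected value was −1.04 with the principal transcript and −0.39 with that of the longest coding sequence.

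The signal peptidase has a catalytic subunit in either of 2 forms, Sec11a or Sec11c, together with Spcs1, Spcs2 and Spcs3. Spcs1 held 6888.8, 7109.0 and 5179.5 normalized counts in Terf1_flox libraries, against 4522.5, 3404.6 and 3662.7 in control libraries. The groups did not overlap, and the level was 1.65-fold higher (log2 fold change 0.72 ± 0.21, adjusted p = 0.202 by limma and 0.0435 by DESeq2). After the correction it was 0.22 with its principal transcript and 0.89 with the transcript of the longest coding sequence, and 252 bases of its exons overlap Glt8d1 on the other strand, which averaged 378.8 normalized counts. The strand setting of the counting is not given, so reads from such an overlap cannot be told apart. Sec11c held 1791.5, 2474.4 and 2299.3 in Terf1_flox libraries, against 1714.5, 1701.3 and 1490.4 in control libraries, also without overlap (0.41 ± 0.24, limma adjusted p = 0.492). Sec11a averaged 2808 ± 721 in Terf1_flox and 2475 ± 620 in control libraries, and the ratio of Sec11a to Sec11c, the ratio of the 8 whose groups overlapped, was 1.31 ± 0.380 in Terf1_flox and 1.53 ± 0.468 in control libraries (SD, n = 3 each). Spcs3, which the catalytic subunit needs, was the only small protein of the list with a negative log2 fold change. It averaged 1481 ± 292 in Terf1_flox and 2472 ± 904 in control libraries (−0.69 ± 0.32, limma adjusted p = 0.37), with overlapping groups. Spcs2 averaged 4499 ± 193 in Terf1_flox and 3765 ± 1043 in control libraries (0.30 ± 0.25), or 0.050 leaving out control replicate 2 and 0.46 leaving out control replicate 1.

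The oligosaccharyltransferase exists in a form built on Stt3a, which works at the translocon as chains emerge, and a form built on Stt3b, which works later. Ddost, Rpn1 and Rpn2 are subunits of both forms. Ddost held 676.6, 1184.3 and 688.2 normalized counts in Terf1_flox libraries, against 2504.5, 2416.2 and 3393.6 in control libraries. All Terf1_flox libraries lay below all control libraries, at a 3.34-fold lower level (log2 fold change −1.74 ± 0.31). Its limma adjusted p was 0.0926 over all genes and 0.0321 over genes with a mean of at least 50, and its DESeq2 adjusted p 6.15e-05. The correction for GC content and length brought its log2 fold change to −0.91.

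Rpn1 held 1206.3, 1059.1 and 1239.7 in Terf1_flox libraries, against 2243.2, 1683.2 and 2841.0 in control libraries (−0.92 ± 0.28, adjusted p = 0.209 by limma and 0.0395 by DESeq2). Rpn2 held 751.6, 687.6 and 1001.9 in Terf1_flox libraries, against 1089.1, 1663.2 and 1728.8 in control libraries (−0.86 ± 0.32, adjusted p = 0.275 by limma and 0.125 by DESeq2). Neither gene's groups overlapped. After the correction Rpn1 was at −0.59 and Rpn2 at −0.24.

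Values of the catalytic subunits lay on opposite sides of 0; the difference between them was not tested. Stt3a held 772.3, 441.3 and 791.4 normalized counts in Terf1_flox libraries, against 1406.6, 1497.4 and 2963.3 in control libraries. The groups did not overlap, and the level was 2.85-fold lower (log2 fold change −1.51 ± 0.40, adjusted p = 0.172 by limma and 0.00598 by DESeq2). Here the correction did not shrink the difference, which was −1.88 afterwards. Stt3b held 888.7, 865.2 and 766.1 in Terf1_flox libraries, against 702.0, 497.5 and 876.2 in control libraries, with overlap and a log2 fold change of 0.31 ± 0.34, or 0.096 leaving out control replicate 2 and 0.50 leaving out control replicate 3. The ratio of Stt3a to Stt3b within a library was 0.869, 0.510 and 1.03 in Terf1_flox, against 2.004, 3.01 and 3.38 in control libraries. Its mean was 0.804 ± 0.267 in Terf1_flox and 2.80 ± 0.713 in control libraries (SD, n = 3 each), lower in 3 of 3 Terf1_flox libraries than in any control library.

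Subunits specific to each form were also read. Krtcap2 and Ostc belong to the Stt3a form and tie it to the translocon. Krtcap2 averaged 3499 ± 379 in Terf1_flox and 2744 ± 593 in control libraries (0.37 ± 0.24), and Ostc 1833 ± 776 in Terf1_flox and 1634 ± 481 in control libraries (0.11 ± 0.40). Magt1, an oxidoreductase of the Stt3b form, averaged 1714 ± 843 in Terf1_flox and 2222 ± 345 in control libraries (−0.48 ± 0.36); it was −0.15 leaving out Terf1_flox replicate 3 and −0.85 leaving out Terf1_flox replicate 2. Groups overlapped for all 3 genes. Ost4, a very short membrane subunit of both forms, held 1756.7, 1271.6 and 1817.6 in Terf1_flox libraries, against 872.7, 999.8 and 891.2 in control libraries. The groups did not overlap, and the level was 1.73-fold higher (log2 fold change 0.79 ± 0.28, adjusted p = 0.261 by limma and 0.0865 by DESeq2); it was 0.96 after the correction. Its exons share 677 bases with Agbl5 on the other strand, which averaged 11.8 normalized counts. Dad1, a small core subunit, averaged 8069 ± 1747 in Terf1_flox and 6727 ± 1314 in control libraries (0.26 ± 0.23).

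**Figure D2:**
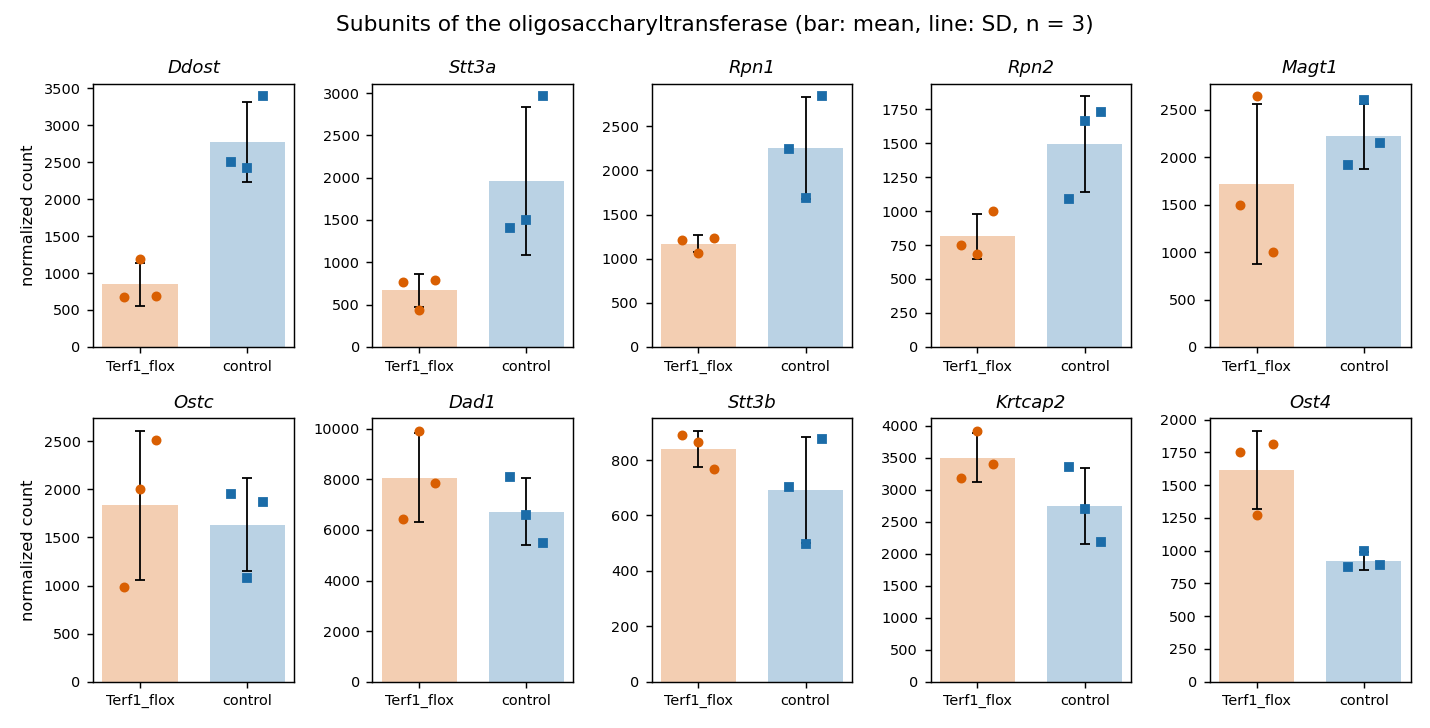
Normalized counts of the 10 oligosaccharyltransferase subunits in the table, Terf1_flox left (orange) and control right (blue); points are libraries, bars means and lines the SD (n = 3 each). The panels run from the lowest to the highest log2 fold change: Ddost, Stt3a, Rpn1 and Rpn2 separate the groups with Terf1_flox below, and Ost4 separates them with Terf1_flox above.

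Promoters are shown for Ddost and Sec61g, the genes of smallest p in each direction, and for the catalytic pair Stt3a and Stt3b. Those of Rpn1 and Rpn2, further lower subunits, and of Srpr, which held TGACGTG, were picked after the values were seen. They run from 250 bases before to 50 after the transcription start (RefSeq, GRCm38.p6), are written 5′ to 3′ on the gene's strand, and were available for 27 of the 36 genes. Capitals mark CCAAT on either strand, the box bound by NF-Y. They also mark TGACGTG, a core bound by XBP1 and ATF6 in the unfolded protein response.
Ddost, chr4:138304488-138304787, + strand: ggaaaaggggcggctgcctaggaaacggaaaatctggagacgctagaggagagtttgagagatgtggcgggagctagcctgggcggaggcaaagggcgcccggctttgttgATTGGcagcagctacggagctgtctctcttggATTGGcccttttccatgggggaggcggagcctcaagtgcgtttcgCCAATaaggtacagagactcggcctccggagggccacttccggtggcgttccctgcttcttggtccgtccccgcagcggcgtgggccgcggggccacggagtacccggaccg
Rpn1, chr6:88084223-88084522, + strand: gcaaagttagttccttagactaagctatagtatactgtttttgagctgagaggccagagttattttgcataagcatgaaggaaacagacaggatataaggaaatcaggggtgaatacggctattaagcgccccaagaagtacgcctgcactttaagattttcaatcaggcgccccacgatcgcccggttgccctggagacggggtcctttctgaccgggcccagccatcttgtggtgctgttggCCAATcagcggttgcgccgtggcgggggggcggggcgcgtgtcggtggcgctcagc
Rpn2, chr2:157278848-157279147, + strand: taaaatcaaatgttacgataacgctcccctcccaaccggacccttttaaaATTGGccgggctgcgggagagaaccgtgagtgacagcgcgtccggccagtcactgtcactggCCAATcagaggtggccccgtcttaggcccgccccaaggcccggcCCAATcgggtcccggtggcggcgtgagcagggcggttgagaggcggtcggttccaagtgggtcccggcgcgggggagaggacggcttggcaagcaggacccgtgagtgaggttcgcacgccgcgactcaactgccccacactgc
Stt3b, chr9:115310419-115310718, − strand: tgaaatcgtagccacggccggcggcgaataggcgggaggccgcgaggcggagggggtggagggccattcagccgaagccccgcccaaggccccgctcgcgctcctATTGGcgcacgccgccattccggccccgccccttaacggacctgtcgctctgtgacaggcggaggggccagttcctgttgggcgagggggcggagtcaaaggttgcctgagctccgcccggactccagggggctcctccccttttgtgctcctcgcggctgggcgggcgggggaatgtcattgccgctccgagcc
Stt3a, chr9:36767573-36767872, − strand: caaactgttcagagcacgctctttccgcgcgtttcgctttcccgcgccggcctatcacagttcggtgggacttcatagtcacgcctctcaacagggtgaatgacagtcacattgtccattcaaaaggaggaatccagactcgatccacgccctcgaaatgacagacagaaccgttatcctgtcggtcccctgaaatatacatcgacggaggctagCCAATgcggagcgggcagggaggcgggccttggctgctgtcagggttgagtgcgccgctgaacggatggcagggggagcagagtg
Sec61g, chr11:16508435-16508734, − strand: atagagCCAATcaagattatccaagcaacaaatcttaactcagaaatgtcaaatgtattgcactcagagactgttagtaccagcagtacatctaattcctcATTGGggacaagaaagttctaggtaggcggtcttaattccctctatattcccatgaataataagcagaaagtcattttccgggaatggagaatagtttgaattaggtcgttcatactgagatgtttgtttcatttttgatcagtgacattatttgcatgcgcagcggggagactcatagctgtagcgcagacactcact
Srpr, chr9:35210953-35211252, + strand: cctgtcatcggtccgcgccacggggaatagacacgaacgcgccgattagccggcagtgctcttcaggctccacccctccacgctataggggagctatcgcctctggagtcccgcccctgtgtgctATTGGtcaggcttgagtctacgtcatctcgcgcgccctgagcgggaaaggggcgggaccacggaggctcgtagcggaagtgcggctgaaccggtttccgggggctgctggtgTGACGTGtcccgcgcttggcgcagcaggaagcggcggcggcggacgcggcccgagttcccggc

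The complete ER stress element, CCAAT and CCACG with 9 bases between, was found in 0 of 27 gene promoters and in 0.137% of all 27025 genes with a promoter, both strands searched. TGACGTG was found in 2 of 27, Srpr and Dpm2, and in 2.22% of all genes. CCAAT was found in 15 of 27, or 55.6%, and in 41.1% of all genes; it can lie within the stress element. All 7 promoters printed held a CCAAT, in genes with lower and with higher levels in Terf1_flox libraries. A match is a description of the letters and not evidence of binding.

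Sugars for the lipid-linked tree are loaded onto dolichol by Alg5, which makes dolichol-phosphate glucose, and by Dpm1, the catalytic subunit of the mannose enzyme, with its partner Dpm2. Alg5 held 847.4, 1102.2 and 1247.8 normalized counts in Terf1_flox libraries, against 2362.9, 1307.7 and 1539.3 in control libraries. The groups did not overlap, at a log2 fold change of −0.68 ± 0.32 (adjusted p = 0.387 by limma), or −0.43 leaving out control replicate 1. Dpm1 held 748.4, 626.0 and 427.1 in Terf1_flox libraries, against 381.8, 193.5 and 394.7 in control libraries, with all Terf1_flox libraries above (0.92 ± 0.45, limma adjusted p = 0.399). Leaving out control replicate 2 gave 0.59, and 895 bases of its exons are shared with the gene Gm20716 on the same strand. Dpm2 averaged 550.0 ± 49.7 in Terf1_flox and 523.3 ± 150 in control libraries (0.11 ± 0.38).

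Log2 fold changes were also set against the size of the encoded protein, a description with no test. Of the 17 genes that encode at most 200 residues, 16 had a log2 fold change above 0, with Spcs3 the exception, and their median was 0.37. Of the 18 genes that encode longer proteins, 4 were above 0, namely Sec62, Spcs2, Stt3b and Dpm1, and their median was −0.58. With the deposited scaling, all 4 genes with a higher level at an unadjusted limma p below 0.05 encode at most 200 residues. All 6 with a lower level encode more. Over all genes tested, 282 of 1658 genes with short proteins were higher and 141 lower at that p, as were 398 and 1019 of 10311 genes with longer ones. The division at 200 residues was chosen after the values were seen. By sign, 57.4% of all genes with short proteins and 41.8% of those with longer ones were above 0, with medians of 0.16 and −0.21. Across the 35 genes, Pearson's r between log2 protein length and log2 fold change was −0.66 and Spearman's rho −0.67; across 11969 coding genes tested rho was 0.01. These correlations are across genes, which share the same 6 libraries and are not independent. Spearman's rho with transcript length was −0.54 among the 35 genes. Transcript GC content gave a rho of −0.03 among the 35 genes and −0.25 over 14657 genes tested. With GC content and length corrected, rho with protein length was −0.50 among the 35 genes, and 13 of 17 short and 6 of 18 long genes were above 0. Their corrected medians were 0.33 and −0.52, beside 0.23 and 0.01 for short and long proteins over all genes. With equal library totals the counts were 11 of 17 and 4 of 18. Shares by sign over all genes were not counted in these 2 fits. The part of library preparation in this pattern was not tested.

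**Figure D3:**
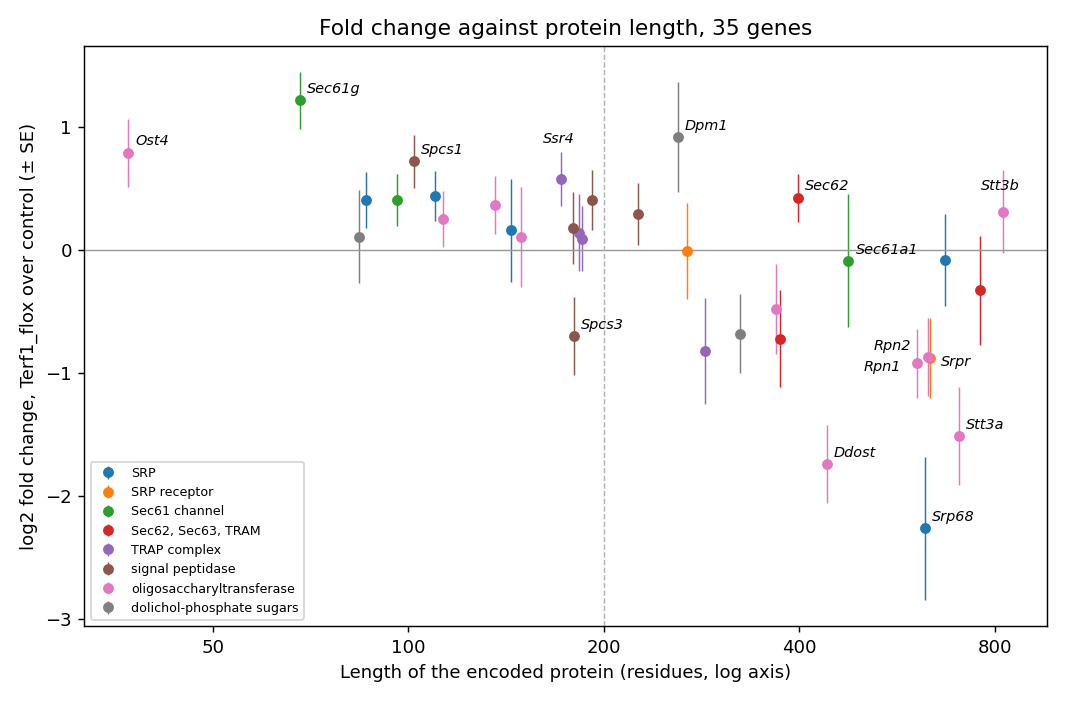
Log2 fold change (Terf1_flox over control) with its SE against the length of the encoded protein on a log axis, for 35 genes coloured by machine; the dashed line is at 200 residues. Of the 17 genes left of the line 16 lie above 0, and of the 18 to the right 4 do.

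**Figure D4:**
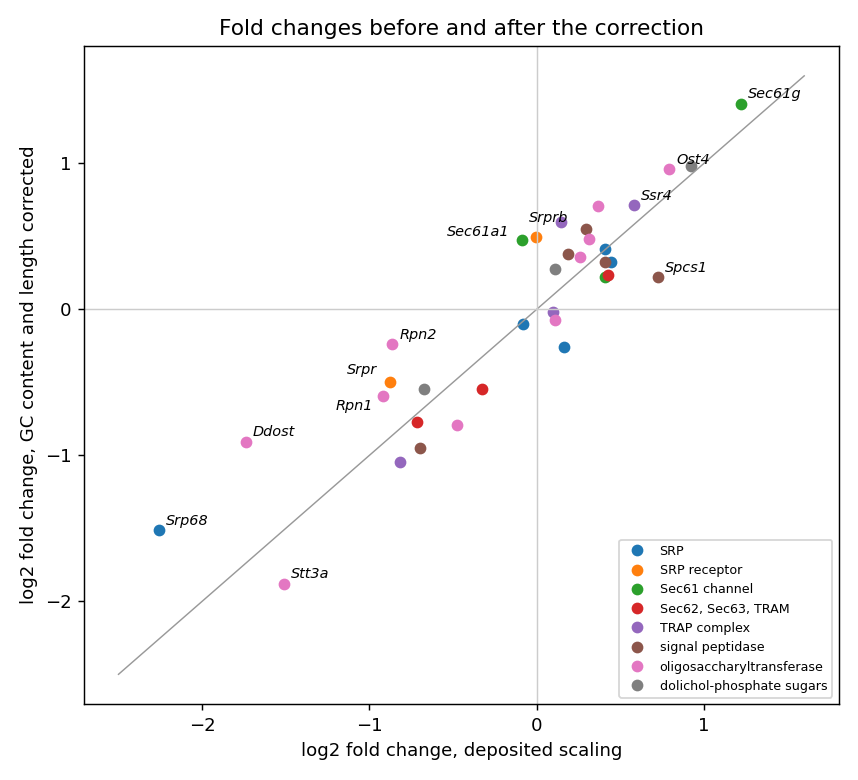
Log2 fold change after correction for GC content and length of the principal transcript (vertical) against that with the deposited scaling (horizontal) for the 35 genes. The diagonal marks equal values. Corrected and deposited values were −0.91 and −1.74 for Ddost, 0.22 and 0.72 for Spcs1, −1.88 and −1.51 for Stt3a, and 1.41 and 1.22 for Sec61g.

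Other genes of the route were counted from lists, and in limma 0 of their 91 tested genes passed. Over all 14822 genes tested, 6991 had a log2 fold change above 0 and 7831 one below it, and the median was −0.08. Among 27 genes that build the lipid-linked sugar tree, 9 were above 0 and 18 below, with 2 higher and 6 lower at an unadjusted limma p below 0.05, against 5.7% and 8.43% of all genes tested. The list's median was −0.32 with the deposited scaling and 0.06 after the correction for GC content and length. The correction also moved the median of all genes, from −0.08 to 0.07, so the corrected list lay near that median. Mpi, which makes mannose 6-phosphate from fructose 6-phosphate, held 79.4, 19.5 and 15.2 normalized counts in Terf1_flox libraries, against 706.4, 712.9 and 622.0 in control libraries. That was 22.8-fold lower (log2 fold change −4.51 ± 0.72, adjusted p = 0.0814 by limma and 2.41e-07 by DESeq2), and −3.91 after the correction. Alg1, which adds the first mannose, held 53.3, 46.2 and 46.6 in Terf1_flox libraries, against 232.2, 432.7 and 273.9 in control libraries (−2.61 ± 0.59, limma adjusted p = 0.13), and the corrected value was −1.84. Mpi and Alg1 both separated the groups with every Terf1_flox library lower. Dpm3, the small anchor of Dpm1, held 3468.9, 2762.7 and 3485.4 in Terf1_flox libraries, against 1896.6, 1977.7 and 1803.0 in control libraries (0.77 ± 0.22, limma adjusted p = 0.195), so that the mannose enzyme's Dpm1 and Dpm3 both lay above control.

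Further subunits and helpers of the same machines numbered 8 tested genes, 1 higher and 3 lower at an unadjusted limma p below 0.05, against 5.7% and 8.43% of all genes tested. Sil1, the exchange factor of BiP, averaged 115.2 ± 86.5 in Terf1_flox and 541.9 ± 83.1 in control libraries (−2.62 ± 0.74, limma adjusted p = 0.191). Its corrected value was −1.90, and leaving out single libraries gave −3.22 to −1.80. Dnajc1, a co-chaperone of BiP in the ER membrane, was at −1.25 ± 0.36. Tmem258, a very small oligosaccharyltransferase subunit, held 4232.5, 3240.0 and 2951.0 in Terf1_flox libraries, against 2393.7, 1799.5 and 1854.3 in control libraries (0.78 ± 0.24, limma adjusted p = 0.221). Tram1l1, a relative of Tram1, averaged 1.38 ± 0.559 in Terf1_flox and 62.5 ± 54.9 in control libraries, where replicate 1 held 2.6; every Terf1_flox library was at 2 reads or fewer. Among 6 genes of the multipass translocon, which helps proteins with many membrane segments fold, 0 had an unadjusted limma p below 0.05. Nomo1 was at −1.58 ± 0.79, Ccdc47 at −0.56 ± 0.41, Tmco1 at 0.35 ± 0.28 and Tmem147 at −0.17 ± 0.20, all with overlapping groups. After the correction Tmem147 was at 0.05.

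In the ER membrane complex, which inserts membrane segments, 1 of 10 genes was higher and 2 lower at an unadjusted limma p below 0.05, against 5.7% and 8.43% of all genes tested. Emc10 averaged 297.7 ± 67.3 in Terf1_flox and 828.2 ± 164 in control libraries (−1.48 ± 0.38), Emc3 was at −0.71 ± 0.29 and Emc2 at 0.79 ± 0.30; after the correction these were at −0.68, −0.18 and 0.51. Emc8 was at −0.84 ± 0.49. Of 7 genes for tail-anchored and signal-independent insertion, 7 were below 0, as were 7831 of 14822 genes tested. At an unadjusted limma p below 0.05, 2 were lower, against 8.43% of all genes tested, namely Sgta (−1.73 ± 0.53) and Get4 (−1.37 ± 0.45). Get3, the ATPase that carries tail-anchored proteins, was at −1.17 ± 0.61 and Ubl4a, which works upstream of it, at −0.67 ± 0.36, both with overlap. After the correction Sgta and Get4 were at −0.88 and −0.52, and the median of the 7 genes was −0.11, against −0.67 before it.

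Downstream steps were counted in the same way. Among 17 genes for glycan trimming and disposal of misfolded glycoproteins, 8 were above 0 and 9 below it (median −0.16). At an unadjusted limma p below 0.05, 2 were higher and 0 lower, against 5.7% and 8.43% of all genes tested. Sel1l, the scaffold of the Hrd1 ligase, averaged 1358 ± 224 in Terf1_flox and 750.0 ± 231 in control libraries (0.89 ± 0.34), and Derl2, a channel component of disposal, was at 0.52 ± 0.23; neither passed over all genes (limma adjusted p = 0.292 and 0.35). Prkcsh, a subunit of glucosidase II, was at −1.34 ± 0.60 and Os9, a lectin of disposal, at −0.98 ± 0.46; after the correction these were at −0.47 and −0.16. Among 16 genes of ER exit, 13 were below 0, as were 7831 of 14822 genes tested. At an unadjusted limma p below 0.05, 4 were lower and 0 higher, against 8.43% and 5.7% of all genes tested. The list's median was −0.61, and −0.34 after the correction. The cargo receptor Tmed2 held 2448.5, 2482.6 and 2538.1 in Terf1_flox libraries, against 5426.9, 3565.7 and 8530.9 in control libraries (−1.14 ± 0.31, adjusted p = 0.184 by limma and 0.00556 by DESeq2). Tmed9 was at −1.50 ± 0.43, the coat GTPase Sar1a at −1.05 ± 0.35 and the glycoprotein receptor Lman1 at −0.53 ± 0.21.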

How the data were processed

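The authors deposited 1 table of normalized counts, a signal of reads divided by a size factor per library, for 16095 genes. Per the submitters' processing notes, DESeq2 and build GRCm39 were used. The aligner, counting tool, strand setting and gene filter were not given in the sources used here. Dividing each library by its smallest step recovered reads, and 100% of values were whole within 0.01 read. The main test was limma (3.58.1, R 4.3.3) with a mean-variance trend on log2(normalized count + 1) across 14822 genes averaging 10 or more, two-sided, with Benjamini-Hochberg adjustment. The ± after a log2 fold change is its SE, and fold changes understate low genes. DESeq2 (1.42.0) and edgeR (4.0.16) quasi-likelihood tests used the recovered reads. The correction removed from each library a spline fit on GC content and log2 length of 1 GENCODE M21 transcript a gene (the APPRIS principal one, or that with the longest coding sequence), known for 98.7% of genes. Every listed gene was named, with each library's value where the unadjusted p was below 0.05 or groups did not overlap, and up to 4 genes of smallest p were named from each further list, except 1 that is not reported here. The listed genes, further lists and tests were chosen with earlier results of these data known. The scripts were tested on simulated reads, on which limma and edgeR kept false calls under the threshold of 0.05 and DESeq2 did not, so DESeq2 values are given only beside those of limma.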

Additional observations from a re-analysis of the deposited data

How the results depend on the processing

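Of 35 genes, 25 kept their direction in all 18 alternatives, and the 10 that reversed had a log2 fold change of at most 0.32 in size. Limma passed 0 genes, 0 of the list; 132 genes and 2 of the list passed with a mean of at least 50, 772 and 6 in DESeq2, 45 genes with equal library totals and 8 with quantile normalization. Terf1 passed at −3.99 with a mean of at least 50, at −4.17 with equal totals and at −3.89 in DESeq2. The list's median was −0.062 with equal totals, 0.23 with equal upper quartiles, 0.22 after the correction for GC content and length, and −0.024 to 0.22 leaving out single libraries. Higher and lower genes at an unadjusted p below 0.05 numbered 2 and 10 with equal totals, and 9 were higher with equal upper quartiles. Leaving out single libraries gave 3 to 4 and 4 to 7. At that p, shares over all genes were counted in the main fit only, so counts from the alternatives have no background beside them. With the correction on the principal transcript, Rpn1, Rpn2, Srpr and Spcs1 were above that limma p (0.064, 0.47, 0.18 and 0.36). Spcs1 was below it with the transcript of longest coding sequence (0.0034). On the principal transcript, Spcs2, Krtcap2 and Dpm1 entered as higher, and Ssr1 and Spcs3 as lower. Longer proteins above 0 numbered 7 with upper quartiles and with quantile normalization, and 5 to 6 leaving out single libraries, when short ones numbered 12 to 16. For all genes, such counts by protein length were made in the main fit only.

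Reversed values were Srp19 −0.013, Ssr2 −0.030, Ssr3 −0.079, Ostc −0.065 and Dpm2 −0.062 with equal totals. With upper quartiles they were Srp72 0.041, Srprb 0.12 and Sec61a1 0.036, and with quantile normalization Srp72 0.0079, Srprb 0.15 and Sec61a1 0.085. EdgeR gave Srprb 0.020 and Sec61a1 0.080, and DESeq2 Srprb 0.013 and Sec61a1 0.073. The correction gave Srp19 −0.26, Srprb 0.50, Sec61a1 0.48, Ssr3 −0.018 and Ostc −0.075; with the transcript of longest coding sequence these were −0.25, 0.49, 0.46, −0.024 and −0.071. Leaving out single libraries ran from −0.32 to 0.43 for Srp19, −0.35 to 0.20 for Srp72, −0.089 to 0.12 for Srprb, −0.43 to 0.42 for Sec61a1, −0.67 to 0.065 for Sec63, −0.024 to 0.26 for Ssr3, −0.040 to 0.36 for Sec11a, −0.17 to 0.50 for Ostc and −0.15 to 0.27 for Dpm2. The cause was not tested. Quantile normalization and the correction moved the median of all genes by 0.13 and 0.14.

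Same-numbered libraries did not deviate together across genes (r of −0.05, 0.00 and −0.01). Such an r cannot settle whether the numbers denote pairs. With the replicate block 0 genes passed and the list's median stayed 0.11. In that fit 4 genes were higher and 6 lower at an unadjusted p below 0.05. With 3 libraries a group, depth and spread limit what could pass.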
